A study of Mus musculus with 8 samples.

Results

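Transcripts of the matrix metalloproteinases (MMP), of their tissue inhibitors (TIMP), of the ADAMTS proteases and of the ADAM proteases were followed in whole lungs of mechanically ventilated mice. The members were all probes whose gene symbol in the platform annotation was Mmp, Timp, Adamts or Adam followed by a number. That gave 101 of the 25697 probes read, for 67 of the 16593 gene symbols on the array. The members comprised 20 MMP genes on 27 probes, 4 TIMP genes on 6 probes, 14 ADAMTS genes on 18 probes and 29 ADAM genes on 50 probes.

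MMPs are zinc-dependent endopeptidases that cleave collagens, gelatin, elastin, proteoglycans and many secreted or cell-surface proteins. They are made as inactive precursors, and TIMPs block them once active. ADAM proteases sit in the membrane and release the outer part of other membrane proteins, such as cytokine precursors and growth factor ligands, while the related ADAMTS proteases are secreted and act on proteoglycans, procollagens and other matrix proteins. In the lung these enzymes take part in matrix turnover, in the passage of leukocytes and in the shedding of cytokines and adhesion molecules.

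The mice were NOD/shi, an inbred strain of the NOD family that is prone to autoimmune diabetes, and were 6 to 12 weeks old. The control group held lungs of 3 mice that were not ventilated, and the ventilated group held lungs of 5 mice that were ventilated; strain, age range and tissue are the same in both, and the labels name no other agent or allele. The series is a study of lung injury caused by the ventilator, and the comparison asked which lung transcripts differed after ventilation. The sources used here do not give ventilator settings or duration, or say how control mice were treated. Each lung was read on 1 single-colour bead array, and p-values measure the spread between these samples. All 10 markers of lung epithelium and endothelium examined, among them the surfactant gene Sftpc and the club cell gene Scgb1a1, were detected.

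The arrays differed in brightness, from a mean probe intensity of 54.3 on control 2 to 332 on control 1, with 87.4 to 321 on the ventilated arrays. Control 2 stood apart. It detected 16 of the 67 member genes, against 35 and 36 on controls 1 and 3 and 23 to 34 on the ventilated arrays, and among the 3 controls it lay farthest from the others for 24 of the 32 members kept for testing (75%) and for 64.8% of all features. Control 1 carried more skeletal muscle transcript than the other controls: the summed linear level of 4 detected muscle markers ran from 84 to 4330 over the controls and from 125 to 158 over the ventilated lungs. The sum of 4 detected cardiac muscle markers varied in both groups, from 1230 to 8225 over the controls and from 904 to 5346 over the ventilated lungs. Values without control 2 are given beside members whose direction or call they change or whose difference they move by more than 1.5 times, and values without control 1 beside Mmp9, Adamts15 and Mmp14.

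A gene was kept if 3 or more of the 8 arrays detected a probe of it, with a detection p under 0.05. This held for 32 of the 67 members: 11 MMPs, all 4 TIMPs, 6 ADAMTS and 11 ADAM genes. Of the other 35, 20 were detected on no array and 15 on 1 or 2. All levels are log2 values after background correction and quantile normalization, and levels of different probes cannot be compared. The scale starts a little above 4, but the lowest level called detected ran from 4.49 on control 1 to 5.79 on control 2. On control 2 an undetected probe could therefore read well above 4, as Mmp23 did at 5.75. Others read near the start of the scale, as Adamts15 did at 4.32.

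**Figure D1:**
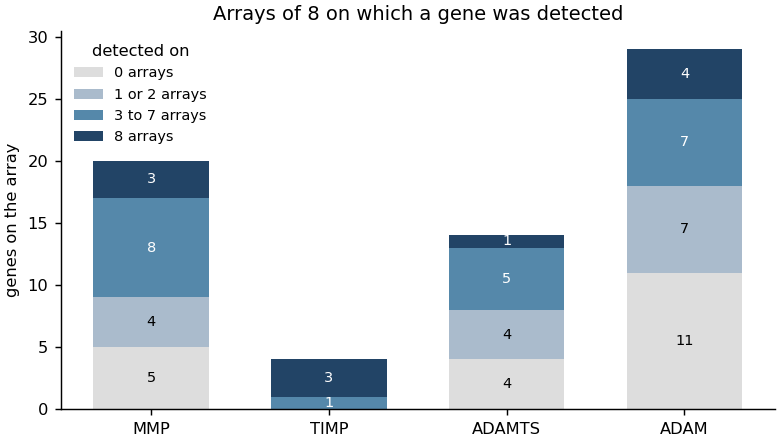
Number of genes on the array in each family (vertical axis), split by the number of the 8 arrays on which the best probe of the gene was detected. All 4 TIMPs lie in the upper classes, whereas 11 of the 29 ADAM genes were detected on no array.

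Against the controls, ventilated lungs had higher levels of Mmp9, a gelatinase stored in neutrophil granules, and of Adamts15, a protease that cleaves proteoglycans such as aggrecan and versican. These were 2 of the 32 members, and 1.26% of all 10200 features were called higher by limma at a Benjamini-Hochberg adjusted p under 0.05. None of the 32 fell by limma, and 0.735% of all features were called lower. At an unadjusted p under 0.05, 4 members were higher and 1 was lower, 5 of 32, against 16.2% of all features in either direction. Groups did not overlap for 5 of the 32 members (13.2% of all features): Mmp9, Mmp14 and Adamts15 were higher in each ventilated lung than in each control (6.71% of all features), and Mmp11 and Adamts17 lower (6.45%). The median log2 difference, ventilated minus control, was 0.13 over the 32 members and 0.01 over all features.

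**Figure D2:**
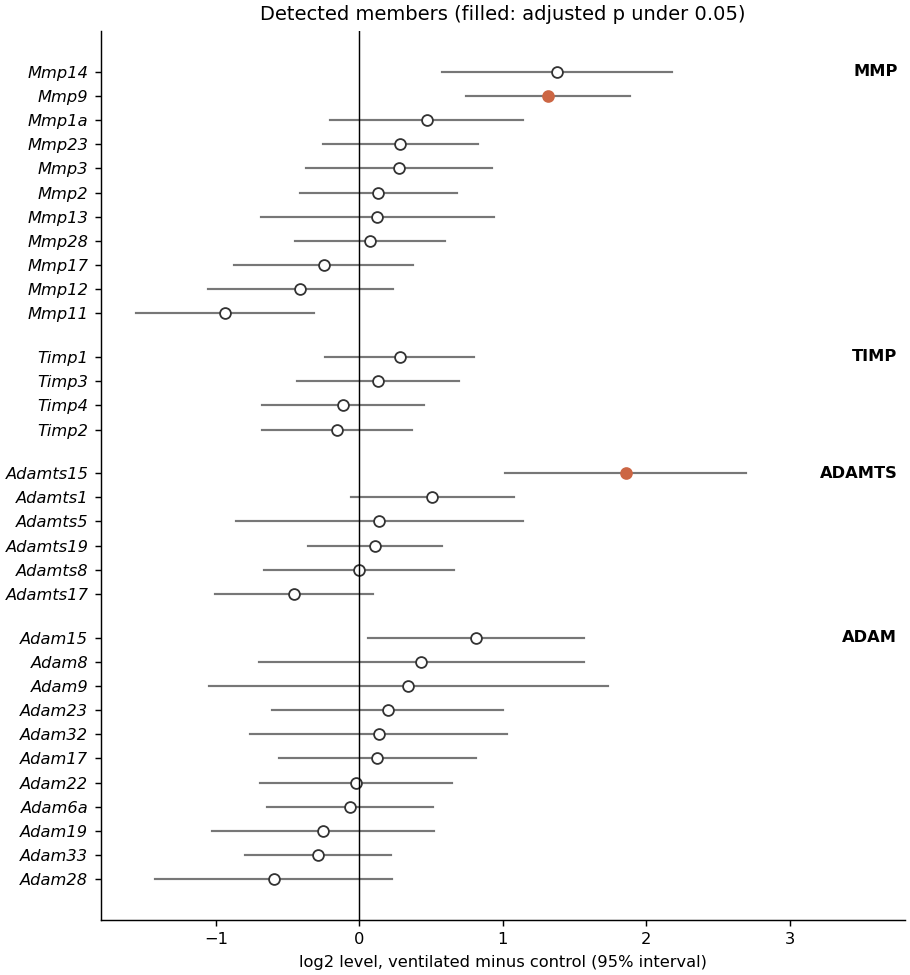
Log2 level of ventilated minus control lungs (horizontal axis) with its 95% interval for the 32 detected members, by family. The filled points, Mmp9 at 1.32 and Adamts15 at 1.86, passed the adjusted p of 0.05; the intervals of Mmp14, Mmp11 and Adam15 leave out 0 but did not pass after adjustment.

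Mmp9 read 5.24, 6.03 and 4.98 on controls 1 to 3, and 6.93, 6.68, 6.60, 6.78 and 6.67 on ventilated arrays 1 to 5. Every ventilated lung lay above every control, and the controls were spread more widely (5.41 ± 0.55, SD, n = 3) than the ventilated lungs (6.73 ± 0.13, SD, n = 5). The rise was 2.49-fold, a log2 difference of 1.32 ± 0.26 (SE; limma adjusted p = 0.0325). Mmp9 was detected on all 8 arrays. Without control 2 the log2 difference was 1.62 (adjusted p = 0.00582), without control 1 it was 1.23 (adjusted p = 0.105), and within the 4 brighter arrays (controls 1 and 3, ventilated 2 and 5) it was 1.57 (adjusted p = 0.0657). The call was lost when any array other than control 2 was left out, with adjusted p values up to 0.124 and log2 differences of 1.10 to 1.35.

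Several neutrophil markers were also higher in ventilated lungs. Of 12 markers other than Mmp9, 9 were kept and 5 of these were called higher (1.26% of all features): Retnlg, S100a8, S100a9, Fpr2 and Camp. Ngp, Ltf, Csf3r and Cxcr2 did not pass, and the groups overlapped for Csf3r and Cxcr2. Camp, Ngp and Cxcr2 were kept only through ventilated arrays, so the count is a description. The summed linear level of the 9 was 691 to 1137 in controls and 7380 to 18073 in ventilated lungs. Among the controls Mmp9 was highest on control 2. Retnlg read 4.75 there, below the lowest level detected on that array, 5.79, and so was not detected. Over the ventilated arrays Retnlg, a gene transcribed in neutrophils, read 11.59, 10.39, 10.81, 9.70 and 10.32. Mmp9 spanned 6.60 to 6.93 there, so narrow a range that its order over these arrays is not read. The part of neutrophils in the Mmp9 difference was not tested, and in whole lung RNA more cells of a type and more transcript per cell cannot be told apart. Mmp8, the collagenase of neutrophil granules, was detected on ventilated 3 alone and was not tested.

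Adamts15 read 6.02, 4.32 and 5.82 on the controls and 7.09, 7.30, 6.88, 7.17 and 7.80 on the ventilated arrays. The groups did not overlap, and control 2, the lowest value, was the only array on which it was not detected. The control mean was 5.39 ± 0.93 (SD, n = 3) and the ventilated mean 7.25 ± 0.34 (SD, n = 5), a log2 difference of 1.86 ± 0.38 (SE; limma adjusted p = 0.0366) or 3.62-fold. Without control 2 the log2 difference was 1.32 (adjusted p = 0.0419), and within the brighter arrays it was 1.63 (adjusted p = 0.0865). Without control 1 it was 2.17 and the call was kept (adjusted p = 0.0422); the call was lost when control 3 or any ventilated array was left out, with adjusted p values up to 0.0966.

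**Figure D3:**
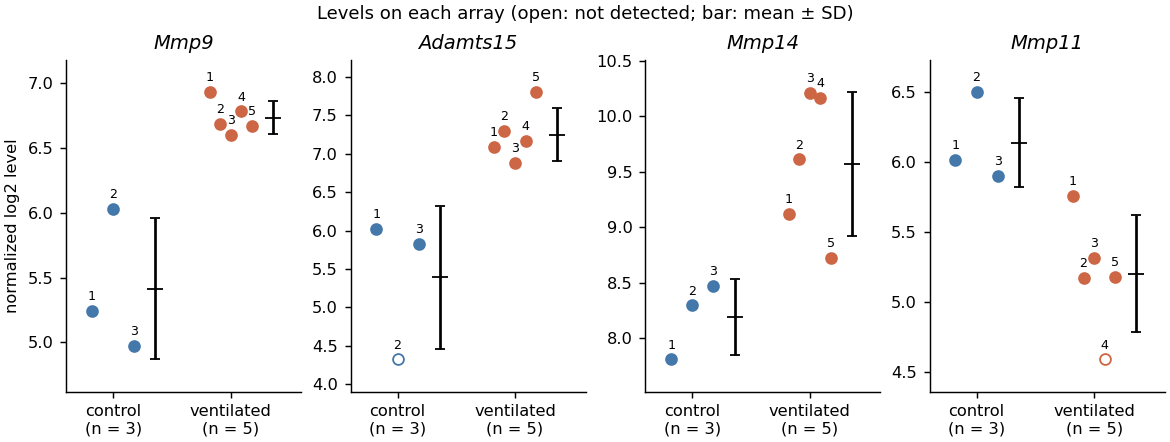
Normalized log2 level (vertical axes, each with its own range) of Mmp9, Adamts15, Mmp14 and Mmp11 in 3 control and 5 ventilated lungs, numbered by replicate, with the mean and SD of each group. The groups do not overlap for any of the 4 genes; open circles mark control 2 for Adamts15 and ventilated 4 for Mmp11, where the probe was not detected.

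Among the MMPs the next smallest p-values were those of Mmp14 and Mmp11, which lay in opposite directions. Mmp14 encodes a collagenase anchored in the membrane, which also activates the precursor of Mmp2. It read 7.81, 8.30 and 8.47 on the controls and 9.12, 9.61, 10.21, 10.17 and 8.73 on the ventilated arrays, so that each ventilated lung lay above each control, with ventilated 3 and 4 highest. The log2 difference was 1.38 ± 0.36 (SE; 2.60-fold) and its 95% interval 0.58 to 2.18. This did not pass over all features (limma adjusted p = 0.0879), and no omission of 1 array brought it below the threshold: it was 1.18 (adjusted p = 0.204) without control 1 and 1.43 (adjusted p = 0.1) without control 2.

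Mmp11, stromelysin-3, a protease of stromal cells that does not cleave most matrix proteins, read 6.02, 6.50 and 5.90 on the controls. On the ventilated arrays it read 5.76, 5.18, 5.32, 4.59 and 5.18, below every control, and it was not detected on ventilated 4. The log2 difference was −0.94 ± 0.28 (SE) with a 95% interval of −1.56 to −0.31, and it did not pass over all features (limma adjusted p = 0.129). The summed linear level of 7 fibroblast markers was 3731 to 4641 in controls and 3721 to 4172 in ventilated lungs. The markers of highest mean level, Dcn and Pdgfra, weigh most in this sum. The markers did not move together. Of the 7, 1 was called lower, as were 0.735% of all features. This was the mesenchymal transcription factor Tcf21 (log2 difference −2.04, limma adjusted p = 0.0257). The growth factor receptor Pdgfra was higher in every ventilated lung than in every control (log2 difference 0.76) without passing (limma adjusted p = 0.214). The part of fibroblast number in Mmp11 or Mmp14 was not tested.

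Mmp2, the other gelatinase, is made by fibroblasts and other mesenchymal cells. It read 10.03, 9.62 and 9.62 on the controls and 10.26, 10.09, 9.69, 9.43 and 9.96 on the ventilated arrays. The groups overlapped throughout, and the log2 difference of 0.13 had a 95% interval of −0.42 to 0.68; without control 2 it was 0.063.

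The remaining 7 MMPs that were kept had log2 differences between −0.41 and 0.47, with overlapping groups and adjusted p values of 0.496 or more. They were the interstitial collagenases Mmp1a and Mmp13, stromelysin-1 (Mmp3), the macrophage elastase Mmp12, the membrane-type Mmp17, and Mmp23 and Mmp28. Mmp12 stood at −0.41 ± 0.29 (SE), and the summed linear level of 6 alveolar macrophage markers was 1822 to 2604 in controls and 1309 to 2118 in ventilated lungs; their part in the level of Mmp12 was not tested. Mmp3 was kept on 3 probes, with log2 differences of 0.28, 0.46 and 0.72. For the last of these each ventilated lung lay above each control, without passing when every kept probe was a feature of its own (limma adjusted p = 0.17). The second kept probe of Mmp1a gave −0.06, against 0.47 by the probe used. Without control 2 the log2 difference of Mmp12 was −0.63 and that of Mmp23 0.17 (0.29 with all arrays), and those of Mmp13, Mmp17 and Mmp28 changed sign, to −0.097, 0.016 and −0.072.

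Matrilysin (Mmp7), Mmp1b, Mmp16, Mmp20 and Mmp21 were detected on no array. Mmp8 and Mmp10 were detected on 1 array each, and Mmp19 and Mmp24 on 2.

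The inhibitors showed no change that passed the test. Timp1 is induced in many injured tissues and binds the precursor of Mmp9. It read 7.77, 7.18 and 7.26 on the controls and 7.95, 7.41, 7.90, 7.64 and 7.52 on the ventilated arrays, with overlapping groups. Its log2 difference was 0.28 ± 0.23 (SE; 95% interval −0.24 to 0.80; limma adjusted p = 0.611), and a second probe gave 0.12. Without control 2 the difference was 0.17.

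Timp2, which takes part in the activation of Mmp2 by Mmp14, read 11.48, 12.02 and 11.52 on the controls. On the ventilated arrays it read 11.98, 11.44, 11.35, 11.38 and 11.44, with ventilated 1 apart from the rest and inside the control range. Its 95% interval was −0.68 to 0.37, and the difference was −0.15 with all arrays and 0.020 without control 2. Timp3, the inhibitor that is held in the matrix and also blocks Adam17, read 12.18, 11.44 and 11.49 on the controls and 12.03, 11.99, 11.88, 11.37 and 11.90 on the ventilated arrays. Its 95% interval was −0.43 to 0.70, its second probe differed by 0.20, and the difference of 0.13 was 0.0025 without control 2. Timp4 was detected on 4 arrays, 2 of each group, with a log2 difference of −0.11 (95% interval −0.68 to 0.45), or −0.38 without control 2.

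The levels of protease and inhibitor were also set against each other within each lung, as a description chosen after their values were seen and with no test. The log2 level of Mmp9 minus that of Timp1, relative to the control mean, was −0.54, 0.83 and −0.29 on the controls and 0.97, 1.26, 0.69, 1.13 and 1.14 on the ventilated arrays. Here control 2 lay above ventilated 3, so the groups overlapped. Mmp14 minus Timp2 was −0.19, −0.25 and 0.43 on the controls and 0.63, 1.65, 2.35, 2.27 and 0.76 on the ventilated arrays, with no overlap.

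Of the other ADAMTS genes, Adamts1, an early-response protease that also cleaves versican and aggrecan, read 6.66, 7.39 and 6.47 on the controls. It read 7.49, 7.53, 7.18, 7.46 and 7.09 on the ventilated arrays, and control 2 lay among them. The log2 difference was 0.51 ± 0.26 (SE; 95% interval −0.06 to 1.08; limma adjusted p = 0.368), or 0.79 without control 2 (adjusted p = 0.109).

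Adamts17, which has few known substrates, read 4.65, 5.45 and 4.64 on the controls and 4.57, 4.53, 4.30, 4.24 and 4.63 on the ventilated arrays. It was detected on 2 controls and on 1 ventilated array, so most of these values lie at background, among them the highest, 5.45 on control 2. The log2 difference of −0.46 did not pass (limma adjusted p = 0.406) and was −0.19 without control 2. Adamts5, another aggrecan- and versican-cleaving protease, was at 0.14 ± 0.45 (SE), with values from 4.44 to 6.68 in the ventilated lungs and control 2 not detected; without control 2 it was −0.20. Adamts8 and Adamts19 stood at −0.0036 and 0.11, each detected on 4 arrays, and at −0.19 and 0.17 without control 2. The other 8 ADAMTS genes on the array were not kept, among them Adamts4, an aggrecanase (1 array), Adamts3, a procollagen N-propeptidase (0 arrays), and Adamts13, which cleaves von Willebrand factor (at most 1 array on any of its probes).

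No ADAM gene passed the test, and for none of the 11 kept did the groups stand apart on the probe used. Adam15, a protease of endothelial and epithelial cells that binds integrins, had the smallest p. It read 8.54, 9.90 and 8.38 on the controls and 10.10, 9.63, 9.52, 9.93 and 9.58 on the ventilated arrays. Control 2 lay within the ventilated range and the other controls below every ventilated lung. The log2 difference was 0.81 ± 0.34 (SE; limma adjusted p = 0.273) with all arrays and 1.29 (adjusted p = 0.0297) without control 2, and a second probe, detected on 3 arrays, gave 0.01.

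Adam28, a protease of lymphocytes and epithelium, read 5.77, 5.10 and 6.59 on the controls. It read 4.95, 5.41, 5.38, 4.54 and 5.84 on the ventilated arrays, and was not detected on control 2 or ventilated 4. The groups overlapped, and the log2 difference of −0.60 ± 0.37 (SE) did not pass (limma adjusted p = 0.483). It was −0.96 without control 2 and −0.21 without control 3, and a second kept probe, detected on 3 arrays, gave 0.08. Adam33, a protease of smooth muscle and fibroblasts, read 4.84, 4.24 and 4.76 on the controls and 4.28, 4.21, 4.17, 4.31 and 4.67 on the ventilated arrays, most of them at background, and stood at −0.29 ± 0.23 (SE), or −0.48 without control 2.

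Adam17, which sheds tumour necrosis factor and ligands of the EGF receptor, was detected on all 8 arrays. It stood at 0.13 with a 95% interval of −0.56 to 0.81, and at −0.20 without control 2. Adam10, the other main sheddase, was read by 1 probe, which was detected on no array, so its level was not measured here. Adam8, a protease of leukocytes, stood at 0.43 ± 0.51 (SE), with control 2 at 6.85 against 4.82 and 4.72 on the other controls. Without control 2 its log2 difference was 1.13 (limma adjusted p = 0.159), and with array brightness as a block it was 0.04. Its second probe was detected on no control and on 3 ventilated arrays (1, 3 and 5). It was kept only through ventilated arrays. Its ventilated mean, with the undetected ventilated 2 and 4 included, was 1.05-fold the lowest detected signal of the controls.

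Adam9 and Adam19, both active proteases of many cell types, stood at 0.34 and −0.25. For Adam9 control 2 read 4.80, not detected, against 7.70 and 7.13 on the other controls, and its 95% interval, −1.05 to 1.73, was the widest of the 32. Without control 2 the difference of Adam9 was −0.53 and that of Adam19 −0.50, and without ventilated 4 that of Adam19 was −0.0091. Adam22 and Adam23, which lack protease activity and are known from the brain, stood at −0.02 and 0.20, and at 0.22 and −0.26 without control 2. Of 17 ADAM genes on the array that are expressed mainly in the male reproductive tract, 10 were detected on no array and 2 were kept, Adam32 on 6 arrays and Adam6a on 4, at 0.13 and −0.07; without control 2 Adam32 was at 0.71.

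**Figure D4:**
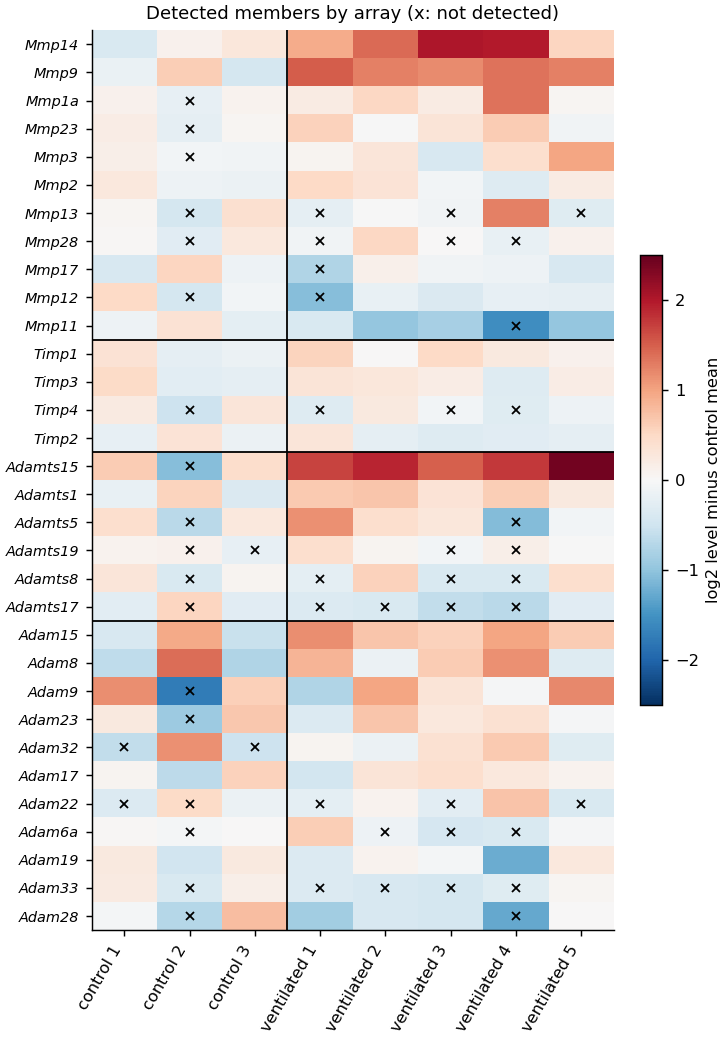
Log2 level minus the control mean of each of the 32 detected members (rows, by family) on each of the 8 arrays (columns); crosses mark arrays on which the probe was not detected. Mmp9, Mmp14 and Adamts15 are high across the 5 ventilated columns, and control 2 differs in both directions from the other controls, as for Adam9 and Adam8.

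The start regions of the genes were read from a set of promoter sequences (mouse build GRCm38.p6). This set held an entry for 40 of the 67 members and 21 of the 32 kept. In the 200 bases before the start, 3 motifs were searched on both strands: a TATA box (TATAAA), a site for the AP-1 transcription factor (TGANTCA) and a GC box (GGGCGG). In RefSeq order, 10 MMP genes follow each other with no other protein-coding gene between them, from Mmp13 to Mmp7. Of these 10, 8 held an AP-1 site, 7 both an AP-1 site and a TATA box, and none a GC box. Of the 11 other MMP genes on the array, 6 had an entry. None of these held an AP-1 site and 4 held a GC box, as did 3 of the 4 TIMPs. Mmp9, Adamts15 and Mmp2 had no entry, so the genes called higher were not searched. Over all 32851 start regions, 5.48% held the AP-1 motif, 9.96% the TATA motif and 31% the GC box. A match of letters is a description and not a bound site.

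Both kinds of start region are shown with the motifs in capitals, 5′ to 3′ on the strand of the gene, each ending just before the start of the gene. Mmp14 lies at chr14:54431398-54431597 (plus strand) and Mmp11 at chr10:75932503-75932702 (minus strand); they are the MMPs of smallest p with an entry and lay in opposite directions. Timp1 lies at chrX:20869966-20870165 (plus strand). Mmp13 at chr9:7272314-7272513 (plus strand), Mmp1a at chr9:7463941-7464140 (plus strand) and Mmp3 at chr9:7445622-7445821 (plus strand) are the kept genes of the run that hold both an AP-1 site and a TATA box.
Mmp14: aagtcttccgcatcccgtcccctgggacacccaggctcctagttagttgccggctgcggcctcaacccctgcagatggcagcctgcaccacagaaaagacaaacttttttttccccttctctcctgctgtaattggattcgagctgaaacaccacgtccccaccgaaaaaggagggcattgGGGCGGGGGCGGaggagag
Mmp11: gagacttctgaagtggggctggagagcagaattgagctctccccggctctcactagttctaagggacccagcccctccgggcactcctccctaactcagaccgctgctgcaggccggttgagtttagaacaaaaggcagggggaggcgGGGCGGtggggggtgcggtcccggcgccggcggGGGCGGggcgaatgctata
Timp1: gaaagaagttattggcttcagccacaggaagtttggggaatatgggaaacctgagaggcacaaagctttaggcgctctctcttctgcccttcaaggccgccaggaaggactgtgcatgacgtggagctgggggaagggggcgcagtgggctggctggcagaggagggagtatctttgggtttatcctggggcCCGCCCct
Mmp13: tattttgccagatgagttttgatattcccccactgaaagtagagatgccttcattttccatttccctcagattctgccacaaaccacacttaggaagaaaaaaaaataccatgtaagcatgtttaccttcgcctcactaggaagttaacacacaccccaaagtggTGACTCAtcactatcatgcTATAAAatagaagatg
Mmp1a: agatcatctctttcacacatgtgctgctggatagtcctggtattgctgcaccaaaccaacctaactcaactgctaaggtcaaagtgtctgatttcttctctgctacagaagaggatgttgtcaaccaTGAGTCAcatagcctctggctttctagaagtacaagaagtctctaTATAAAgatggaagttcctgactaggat
Mmp3: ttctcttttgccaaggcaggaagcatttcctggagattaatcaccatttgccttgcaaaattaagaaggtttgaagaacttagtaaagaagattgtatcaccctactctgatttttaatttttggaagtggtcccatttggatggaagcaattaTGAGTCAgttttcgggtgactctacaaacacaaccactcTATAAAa

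Mmp14 and Mmp11 each held 2 GC boxes and neither of the other motifs, while their levels lay in opposite directions. Timp1 held 1 GC box. The 9 genes of the run that were on the array gave 4 kept genes, Mmp13, Mmp12, Mmp3 and Mmp1a, none of which passed the test, and 3 that were detected on no array.

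Genes that regulate or accompany these proteases were taken from lists chosen with earlier results of these data known. Over all features 1.26% were called higher and 0.735% lower. Of 12 kept regulators of pericellular proteolysis 1 rose, the urokinase receptor Plaur, from 7.26 ± 0.39 (SD, n = 3) to 8.79 ± 0.51 (SD, n = 5), a log2 difference of 1.53 ± 0.32 (SE; limma adjusted p = 0.0395). The median of the list was 0.02. The proprotein convertase Furin, which activates membrane-type MMPs and ADAMs, stood at 0.46 ± 0.44 (SE), and Reck, a membrane-anchored MMP inhibitor, at −0.49 ± 0.19 (SE) with every ventilated lung below every control; neither passed (limma adjusted p = 0.666 and 0.239), and both were chosen after their values were seen.

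None of the 5 kept astacin and ADAMTS-like genes passed. Bmp1, a protease that processes procollagen, had the smallest p, with 8.25, 7.20 and 9.03 on the controls and 9.10, 10.23, 10.33, 10.36 and 9.20 on the ventilated arrays (log2 difference 1.69 ± 0.45, SE; limma adjusted p = 0.0904). Every ventilated lung lay above every control, ventilated 1 and 5 by little.

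Of 15 kept substrates that Adam10 or Adam17 shed, none passed. The transmembrane chemokine Cx3cl1 was nearest, at 7.36, 7.46 and 6.73 on the controls and 5.53, 6.27, 5.75, 5.06 and 6.25 on the ventilated arrays (log2 difference −1.41 ± 0.32, SE; limma adjusted p = 0.0529). All ventilated values of Cx3cl1 lay below the controls, while the median log2 difference of the list was 0.29. Of 8 kept matrix substrates of ADAMTS proteases none passed; the smallest p was that of the collagen chain Col3a1, at 0.84 ± 0.48 (SE; adjusted p = 0.43). Versican and aggrecan, the substrates for which Adamts15 is known, were detected on no array.

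**Figure D5:**
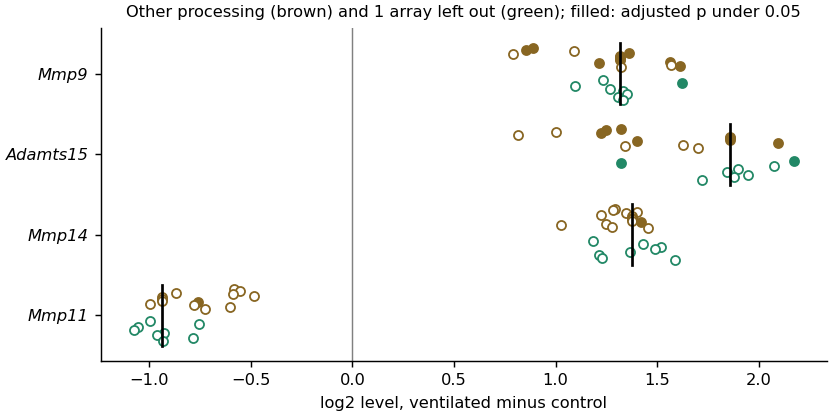
Log2 difference, ventilated minus control (horizontal axis), of 4 genes under other processing and with 1 array left out; the black line is the reported value and filled points passed an adjusted p of 0.05. Each gene stays on 1 side of 0 throughout, while most points with 1 array left out are open.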

How the data were processed

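Per the labels, biotin-labelled cRNA was made (MessageAmp) from Trizol-extracted, DNase-treated lung RNA and read on Illumina arrays. The authors deposited linear probe intensities that are not normalized and a detection p-value for each, per the file headers. They also deposited a value table of linear intensities, used as an alternative; its array means are equal, its medians are 31.7, 116 and 34.3 on controls 1 to 3 and 70.2, 42.5, 61.5, 82.5 and 30.9 on ventilated arrays 1 to 5, and how it was scaled is not stated. The sources used here name no scanner software or genome build. Symbols came from the platform annotation; all 101 member probes had 1 symbol, which matched the RefSeq table.

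From the deposited intensities, log2 levels were computed by neqc (limma 3.58.1, R 4.3.3; offset 16, quantile normalization). The detection rule (p under 0.05, 3 or more of 8 arrays) kept 13374 probes, and taking the probe of highest mean per gene left 10200 features. The groups were compared by lmFit and eBayes, two-sided, with Benjamini-Hochberg adjustment over all features and a threshold of 0.05; second probes come from a fit of all kept probes. The fit was tested on simulated data. Values on every array are given, by rule, for members past the threshold and, per family, for the 3 members of smallest p, the lowest difference and the highest mean signal. From each list of related genes, those past the threshold are named, or that of smallest p. The members and lists were chosen with earlier results of these data known. For a probe detected in a single group, the fold sets the mean of all arrays of that group against the lowest detected signal of each array of the other group. The probe's own signal there is used where it is larger. The number of arrays limits the precision of all values.

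Other settings changed the background step, the offset, the normalization, the filter, the probe rule, the variance model, the weights, or the arrays used; blocks for brightness and replicate number, the deposited table, and omission of single arrays were also run.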

Additional observations from a re-analysis of the deposited data

Results flagged for a closer look

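Ventilated values far from the rest of their group, by Dixon's criterion for 5 samples, were found in 5 of the 32 members; chance gives about 1 in 20 groups. Ventilated 1 was low for Mmp12, at 4.42 and not detected, against 5.12 to 5.31 on the other ventilated arrays, and high for Timp2, at 12.0 against 11.35 to 11.44. Ventilated 4 was high for Mmp13, at 6.01 against 4.44 to 4.74, and low for Timp3, at 11.4 against 11.88 to 12.03. Ventilated 5 was high for Adam33, at 4.67 against 4.17 to 4.31, and was the only ventilated array on which Adam33 was detected. None of these genes passed the test between groups.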

How the results depend on the processing

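The count of 2 members called higher was 0 with a common median per array, with the deposited value table, within the brighter 4 arrays and with the replicate block. It was 1 when detection was required on all arrays and 1 with no detection filter (Mmp9 both times), and 5 with array weights, which added Mmp14, Adam15 and Adamts1; array weights also called 1 member lower, Mmp11. Without the dimmest array of each group it was again 2 but with other members: Adamts15 was lost (adjusted p = 0.0547) and Adam15 (0.0466) called beside Mmp9. With 1 array left out it ran from 0 to 3, the 3 being Mmp9, Adamts15 and Adam15 without control 2; 0 members were called lower in each of those 8 fits. The 204 features called over the whole array became 0 with a common median, 2 with the replicate block, 6 with the deposited table, 11 within the brighter arrays, 120 without the dimmest array of each group, 313 with cyclic loess, 315 with brightness as a block, 838 with array weights and 68 to 164 with 1 array left out. The common median moved the median of all features to −0.11. Mmp9 ranged from 0.79 to 1.61 and Adamts15 from 0.81 to 2.09 over the 14 fits other than those leaving out 1 array (13 for Adamts15, which is not detected on all arrays), with 10 and 7 calls. Directions turned for uncalled values of the inhibitors: Timp1 was −0.050 within the brighter arrays, Timp3 −0.027 with cyclic loess, and Timp2 was 0.082 with a common median, 0.082 with the deposited table, 0.054 without the dimmest arrays, and from −0.27 to 0.020 with 1 array left out, the positive value being without control 2. Of 402 values of the 19 members not listed by array, 76 changed sign and 0 were called. The causes were not tested. The labels do not say that replicate numbers pair the lungs. Deviations of same-numbered lungs correlated at −0.34, −0.36 and 0.36 for numbers 1 to 3, and those of differently numbered lungs at −0.55 to 0.53. With so few arrays these values cannot show whether lungs were paired. Signal over background limited the members most on control 2, where 16 of 67 genes were detected.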

Other observations

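Among members that were not kept, Mmp10, stromelysin-2, was detected on control 2 alone, at a log2 level of 6.31, and read 4.30 to 4.72 on the other arrays. Mmp8 was detected on ventilated 3 alone, at 4.94. Adam4, on 2 of its probes, and Adamts7 were detected on controls 1 and 3 and on 0 ventilated arrays. The levels of the groups overlapped on each of these probes. Controls 1 and 3 were among the 4 brighter arrays, with ventilated 2 and 5.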
